A study of Mus musculus with 14 samples.

Results

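The 46 genes described here encode the digestive enzymes, membrane proteins and regulators of the lysosome, among them *Glb1*, the gene of lysosomal beta-galactosidase. They were chosen by name and matched by gene ID in count tables of 54532 genes, and all 46 passed the filter on low counts in both tissues. Lysosomes are the acidic compartments in which cells break down sugars, proteins and lipids. A vacuolar proton pump acidifies them, the LAMP proteins line their membrane, and the related factors TFEB and TFE3 turn on many of their genes by binding an E-box, the CLEAR element, near the start of those genes. Beta-galactosidase activity that can still be stained above the enzyme's acidic optimum is a widely used mark of senescent cells and is known to come from the *Glb1* product.

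RNA was sequenced from immortalised mouse embryonic fibroblasts (iMEFs) and from whole mouse livers, to ask how loss of the telomere protein TRF2, encoded by *Terf2*, alters transcripts. All 6 iMEF libraries had the genotype Trf2F/F;Rosa-CreER and came from cells immortalised with SV40 large T antigen. The 3 senescent libraries were collected 7 days after 4-hydroxytamoxifen, which activates CreER and deletes *Terf2*, and the 3 control libraries are from vehicle-treated cells. These libraries include none from drug-treated cells that keep *Terf2*, so the deletion and the drug with active Cre cannot be told apart, and whether the line was 1 clone is not stated. All 8 mice received AAV8-Tbg-Cre, in which the TBG promoter restricts Cre to hepatocytes, and livers were collected 6 to 7 weeks later. The 4 senescent livers were Trf2F/F;Rosa-mTmG and the 4 control livers were Rosa-mTmG without the floxed allele, where mTmG is a fluorescent reporter of Cre. The study's methods place all its mouse strains on a C57BL/6J background. The age of the mice is not given in the sources used here, nor is their sex.

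Libraries held 15364450 to 20177401 reads in genes. *Terf2* fell by 7.23 on the log2 scale in senescent iMEFs and by 1.72 in senescent livers (edgeR's quasi-likelihood test, adjusted p = 1.52e-10 and 0.00216). Of 10 hepatocyte markers 9 had no read in iMEFs, whereas their sum was 84933 to 114003 CPM across livers, where CPM are counts scaled to a common library total. Fibroblast markers summed to 20494 to 22368 CPM in control iMEFs and 9047 to 11212 CPM in senescent iMEFs, with 6 of the 7 genes called lower. Senescent iMEF replicate 3 stood apart. Its share of mitochondrially encoded reads was 2.32%, against 0.853% and 0.644% in senescent replicates 1 and 2 and 0.599% to 0.736% in controls. In whole liver, fewer cells of a type and less RNA per cell cannot be told apart.

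The E-box CACGTG, the core of the element bound by TFEB and TFE3, was searched in the first RefSeq promoter window listed for each gene. A window ran from 250 bases before to 50 bases after the transcription start (GRCm38.p6). *Ctsa*, *Psap*, *Cln3*, *Tfeb* and *Tfe3* had further windows listed, which were not searched. A window was listed for 40 of the 46 genes, and not for *Galns*, *Ctsb*, *Ctsh*, *Asah1*, *Npc1* and *Atp6v1h*. The motif was present in 12 of the 40 windows (30.0%), against 7.24% of all 27025 windows and 10.3% of the 10027 windows of genes tested in iMEFs. The 12 genes were *Glb1*, *Gaa*, *Gla*, *Naglu*, *Sgsh*, *Arsa*, *Ctsd*, *Ctsf*, *Ctsl*, *Lamp1*, *Mcoln1* and *Atp6v0d1*. The longer form TCACGTGA, which contains the E-box, was found in 4 of the 40 windows (10.0%), those of *Gla*, *Ctsd*, *Mcoln1* and *Atp6v0d1*, against 1.01% of all windows and 1.95% of those of genes tested in iMEFs. Both motifs read the same on either strand. A match describes the letters of the window and does not show binding.

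The 250 bases before the start are printed 5′ to 3′ on the strand of the gene for *Glb1*, for *Lamp1*, which holds the most E-boxes, and for *Mcoln1* and *Ctsd*, which hold the longer form. Capitals mark CACGTG. On GRCm38.p6 they lie at chr9:114400828-114401077 (plus strand), chr8:13158911-13159160 (plus strand), chr8:3500269-3500518 (plus strand) and chr7:142387828-142388077 (minus strand).
Glb1: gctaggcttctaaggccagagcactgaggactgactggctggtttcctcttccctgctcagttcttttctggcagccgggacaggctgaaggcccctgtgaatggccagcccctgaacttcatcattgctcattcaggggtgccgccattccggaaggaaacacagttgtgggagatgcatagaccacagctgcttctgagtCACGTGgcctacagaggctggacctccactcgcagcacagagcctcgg
Lamp1: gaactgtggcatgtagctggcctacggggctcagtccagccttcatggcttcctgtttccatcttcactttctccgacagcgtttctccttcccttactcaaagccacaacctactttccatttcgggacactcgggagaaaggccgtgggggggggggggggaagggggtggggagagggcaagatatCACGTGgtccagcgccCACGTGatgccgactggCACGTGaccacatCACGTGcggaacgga
Mcoln1: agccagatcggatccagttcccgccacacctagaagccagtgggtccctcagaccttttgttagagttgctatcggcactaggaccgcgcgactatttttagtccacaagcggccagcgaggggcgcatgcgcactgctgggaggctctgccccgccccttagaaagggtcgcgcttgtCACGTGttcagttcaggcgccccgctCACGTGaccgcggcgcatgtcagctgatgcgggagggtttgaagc
Ctsd: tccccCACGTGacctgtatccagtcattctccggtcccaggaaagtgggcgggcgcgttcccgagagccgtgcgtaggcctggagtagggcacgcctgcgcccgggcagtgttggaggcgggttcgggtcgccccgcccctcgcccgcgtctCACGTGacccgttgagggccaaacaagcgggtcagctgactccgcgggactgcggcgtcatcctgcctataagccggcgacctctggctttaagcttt
The single E-box of *Glb1* was centred 45 bases before the start, and the 4 E-boxes of *Lamp1* were centred 58, 42, 25 and 12 bases before it.

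**Figure D1:**
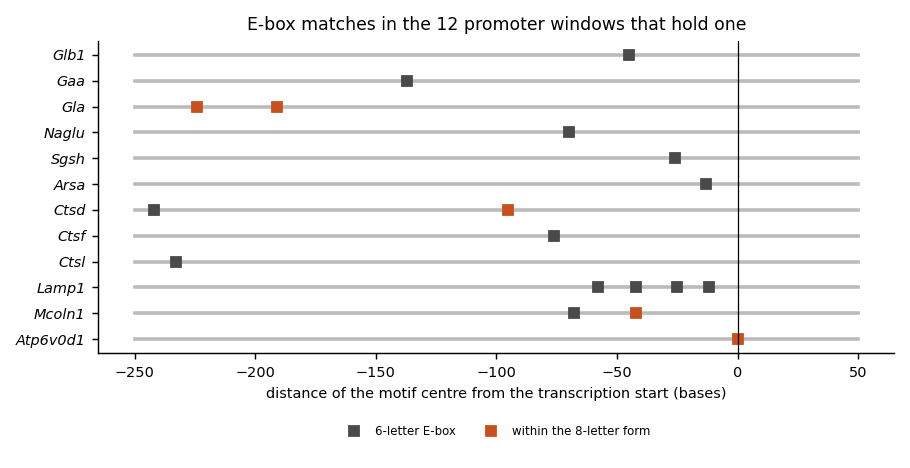
Position of each CACGTG match (squares) in the 12 promoter windows that hold one, as the distance in bases from the transcription start, with matches inside the longer form TCACGTGA in orange. *Lamp1* holds 4 matches between 58 and 12 bases before the start, and the match of *Atp6v0d1* lies on the start itself.

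In senescent iMEFs lysosomal genes were called in both directions, and the counts depended on senescent replicate 3. Of the 46 genes, 8 rose and 6 fell at an adjusted p of 0.05 (quasi-likelihood test in edgeR, Benjamini-Hochberg over the 13561 genes tested), and 32 passed in neither direction. These shares, 17.4% higher and 13.0% lower, compare with 18.6% and 21.2% of all tested genes. The median log2 fold change, senescent over control, was 0.007 for the 46 genes and 0.003 for all tested genes. Without senescent replicate 3, 5 of the 46 genes were called higher and 16 lower (10.9% and 34.8%), against 20.2% and 22.5% of the 13823 genes then tested. The median was then -0.16. Counted with their sign, 41 of the 46 log2 fold changes were lower than with all libraries, which made some falls larger. With all libraries changes were small, since the median size was 0.19 for the 46 genes against 0.28 for all tested genes. The 95% interval lay within 0.5 of zero on the log2 scale for 25 of the 46. The share of reads taken by the 46 genes was 0.994% ± 0.0145 in control and 1.06% ± 0.153 in senescent iMEFs (SD, n = 3 each). Where iMEF groups of a gene are said below to be apart, the share of all tested genes with such groups was not counted. In iMEFs such separation therefore describes the values and adds no support to a call.

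**Figure D2:**
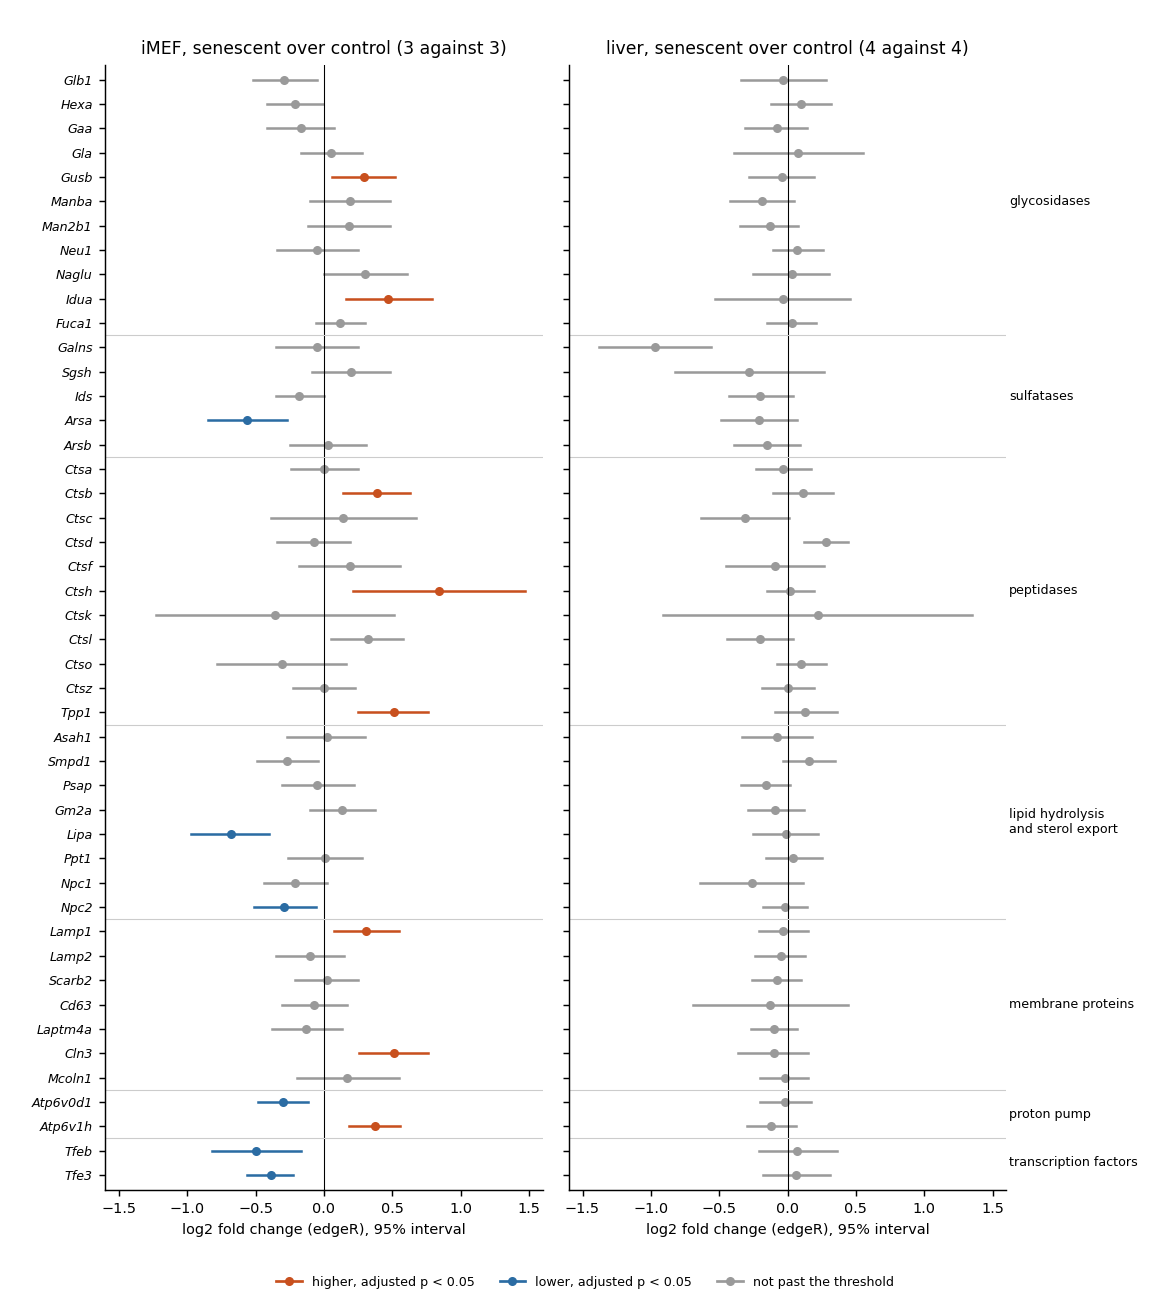
Log2 fold change of each of the 46 genes, senescent over control, with its 95% confidence interval from edgeR, in iMEFs (left, 3 against 3 libraries) and livers (right, 4 against 4), grouped by role. Orange and blue mark genes past an adjusted p of 0.05, 8 higher and 6 lower in iMEFs and 0 in livers.

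As a share of each library, *Glb1* transcripts did not rise in iMEFs. CPM give no amount per cell and no enzyme activity. The paper describes the senescent iMEFs as enlarged and as staining for beta-galactosidase, a stain done 7 days after the drug. The *Glb1* level was 70.4, 68.5 and 71.0 CPM in control iMEFs and 49.9, 54.3 and 68.1 CPM in senescent iMEFs. Every senescent library lay below every control, with replicate 3 close to the controls. The mean was 70.0 ± 1.30 CPM in controls and 57.4 ± 9.48 CPM in senescent cells (SD, n = 3 each). The log2 fold change was -0.29 with a 95% interval of -0.52 to -0.05, and edgeR gave an adjusted p of 0.0541. *Glb1* passed the threshold, lower, without the filter on low counts (0.0164), with limma-voom (0.0402) and without senescent replicate 3, where the change was -0.41 and the adjusted p from edgeR's test was 0.000783. These were 3 of 11 alternative fits. DESeq2 gave *Glb1* an adjusted p of 0.053, and edgeR's test gave 0.102 to 0.236 when any 1 other library was left out. Over all 11 alternatives its log2 fold change ran from -0.41 to -0.19. *Tmppe*, which shares exonic bases with *Glb1* on the same strand, had a log2 fold change of 0.16 and was not called, and reads in the shared bases cannot be assigned to either gene. Of the beta-galactosidase-like genes, *Glb1l* had a log2 fold change of 0.09 (adjusted p = 0.738 from edgeR's test), and *Glb1l2* and *Glb1l3* had at most 3 reads over either group of iMEFs.

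The proteins of *Ctsa*, protective protein cathepsin A, and *Neu1*, a sialidase, form a complex with beta-galactosidase in the lysosome. *Ctsa* was at 433, 448 and 423 CPM in control iMEFs and at 389.6, 389 and 526 CPM in senescent iMEFs. Senescent replicates 1 and 2 were below all controls and replicate 3 was above them. The log2 fold change was 0.00 (95% interval -0.24 to 0.25, adjusted p = 0.991 from edgeR's test). *Neu1* was at 48.2, 56.2 and 49.2 CPM in control iMEFs and at 42.8, 43.1 and 62.8 CPM in senescent iMEFs. Its libraries showed the same order, with 2 senescent values under and 1 over the controls, and the log2 fold change was -0.05 (95% interval -0.34 to 0.25).

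Of the 11 glycosidases, which cleave sugars from glycoproteins, glycolipids and glycosaminoglycans, 2 rose and none fell with all libraries, against 18.6% of all tested genes higher and 21.2% lower. Without senescent replicate 3, none rose and 4 fell, against 20.2% and 22.5% of all genes then tested. The 4 were *Glb1*, *Hexa*, *Gaa* and *Neu1*. The risers with all libraries were *Idua*, alpha-L-iduronidase, with a log2 fold change of 0.47, and *Gusb*, beta-glucuronidase, with 0.29. *Gusb* was called in 4 of 11 alternative fits, and its log2 fold change was 0.16 without senescent replicate 3. *Idua* was at 9.50, 9.99 and 9.13 CPM in control iMEFs and at 12.8, 11.1 and 15.9 CPM in senescent iMEFs. The groups did not overlap (adjusted p = 0.0209 from edgeR's test), but *Idua* shares exonic bases with *Slc26a1* on the opposite strand and the counting may not have used strand. *Idua* was called in 7 of 11 alternative fits and lost its call without senescent replicate 3 or any 1 control library. The other glycosidases ran from -0.29 (*Glb1*) to 0.30 (*Naglu*, which degrades heparan sulfate).

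Among the 5 sulfatases, *Arsa*, the arylsulfatase that degrades sulfatides, fell and the others did not pass, with or without senescent replicate 3. Of all tested genes 18.6% rose and 21.2% fell, and 20.2% and 22.5% without that library. *Arsa* was at 63.7, 61.2 and 51.7 CPM in control iMEFs and at 35.3, 34.9 and 49.4 CPM in senescent iMEFs. All senescent values were below all control values, with a log2 fold change of -0.56 ± 0.13 (SE) at an adjusted p of 0.00541 in edgeR. The log2 fold changes of *Galns*, *Sgsh*, *Ids* and *Arsb* lay between -0.18 and 0.20.

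Of the 11 peptidases, 3 rose and none fell with all libraries, against 18.6% and 21.2% of all tested genes. Without senescent replicate 3, 2 rose (*Tpp1* and *Ctsb*) and 2 fell (*Ctsd* and *Ctso*), against 20.2% and 22.5%. *Tpp1*, tripeptidyl peptidase 1, was at 174, 163 and 175 CPM in control iMEFs and at 213, 216 and 298 CPM in senescent iMEFs. No senescent library overlapped the controls, and *Tpp1* rose by 0.51 ± 0.12 (SE, log2 scale) at an adjusted p of 0.00462 in edgeR. *Ctsb*, the cysteine protease cathepsin B, was at 742, 777 and 764 CPM in control iMEFs and at 873, 932 and 1182 CPM in senescent iMEFs. It rose by 0.39 without overlap, and lost its call when any 1 control library was left out. *Ctsh*, an aminopeptidase cathepsin, was at 2.26, 2.37 and 2.99 CPM in control iMEFs and at 3.49, 3.23 and 6.94 CPM in senescent iMEFs. Its log2 fold change of 0.84 (95% interval 0.21 to 1.47) was the largest of the 46 genes, at the lowest control level per exonic length, and senescent replicate 3 was about double the other 2 libraries. Without that library its log2 fold change was 0.42 and it was not called, and the call was also lost without any 1 control library and with limma-voom. *Ctsl*, another cysteine cathepsin, had a log2 fold change of 0.32 and *Ctsd*, the aspartic protease cathepsin D, of -0.07, and neither passed the threshold. *Ctsc*, *Ctsf*, *Ctsk*, *Ctso* and *Ctsz* lay between -0.36 and 0.19, and none was called.

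In the group of lipid hydrolysis and sterol export, 2 of 8 genes fell and none rose with all libraries. Without senescent replicate 3, 5 of the 8 fell, *Smpd1*, *Psap* and *Npc1* being added to *Lipa* and *Npc2*. The shares of all tested genes were 18.6% higher and 21.2% lower, and 20.2% and 22.5% without that library. *Lipa*, the acid lipase that frees cholesterol from its esters, was at 114, 108 and 125 CPM in control iMEFs and at 56.6, 71.0 and 88.1 CPM in senescent iMEFs. The groups were separate, and *Lipa* had the largest fall of the 46 genes, a log2 fold change of -0.68 ± 0.13 (SE) at an adjusted p of 0.00138 in edgeR. *Npc2*, which hands the freed cholesterol to NPC1 for export, was at 378, 372 and 345 CPM in control iMEFs and at 269, 279 and 349.9 CPM in senescent iMEFs. It was called lower with a log2 fold change of -0.29, although senescent replicate 3 fell among the controls, and it was called in 5 of 11 alternative fits. *Npc1* had a log2 fold change of -0.21 and did not pass (adjusted p = 0.135 from edgeR's test). *Asah1*, *Ppt1* and *Psap*, which encode acid ceramidase, a thioesterase and the saposin precursor, had log2 fold changes between -0.05 and 0.02, against 0.13 for *Gm2a* and -0.27 for *Smpd1*, and none of these was called.

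Of the 7 membrane proteins, *Lamp1* and *Cln3* rose, and without senescent replicate 3 *Laptm4a* also fell. Over all tested genes 18.6% rose and 21.2% fell, and 20.2% and 22.5% without that library. *Lamp1*, the main structural glycoprotein of the lysosomal membrane, was at 1164, 1183 and 1239 CPM in control iMEFs and at 1316, 1401 and 1735 CPM in senescent iMEFs. All senescent values exceeded all control values, with a log2 difference of 0.31 ± 0.11 (SE) at an adjusted p of 0.0415 in edgeR. The call was lost without any 1 control library and without senescent replicate 2. *Cln3*, a membrane protein mutated in juvenile Batten disease, was at 13.7, 13.4 and 13.4 CPM in control iMEFs and at 17.6, 18.6 and 21.7 CPM in senescent iMEFs, a log2 fold change of 0.51 with no overlap. *Lamp2*, the close relative of *Lamp1* that also serves chaperone-mediated autophagy, was at 753, 767 and 920 CPM in control iMEFs and at 664, 741 and 869 CPM in senescent iMEFs. Its groups overlapped, with a log2 fold change of -0.10 (95% interval -0.35 to 0.15). The calcium channel gene *Mcoln1*, the receptor gene *Scarb2*, the tetraspanin gene *Cd63* and *Laptm4a* had log2 fold changes between -0.13 and 0.17, and none was called.

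The 2 proton pump subunits moved in opposite directions. *Atp6v1h*, of the cytosolic V1 sector that hydrolyses ATP, was at 90.1, 94.6 and 102 CPM in control iMEFs and at 127, 134 and 111 CPM in senescent iMEFs. *Atp6v0d1*, of the membrane V0 sector, was at 148, 158 and 163 CPM in control iMEFs and at 126, 138 and 118 CPM in senescent iMEFs. Neither gene overlapped between groups, and their log2 fold changes were 0.37 (adjusted p = 0.00568) and -0.30 (adjusted p = 0.0121) in edgeR's test. For both, senescent replicate 3 was the lowest senescent library, unlike most of the other genes. *Atp6v0d1* lost its call without control replicate 2 or senescent replicate 1.

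Both transcription factors fell. *Tfe3* was at 117, 114 and 106 CPM in control iMEFs and at 85.7, 85.2 and 84.9 CPM in senescent iMEFs. The 3 senescent libraries were nearly equal and all below the controls, with a log2 fold change of -0.39 ± 0.08 (SE) at an adjusted p of 0.00143 in edgeR. *Tfeb* was at 18.2, 18.7 and 13.5 CPM in control iMEFs and at 13.7, 10.9 and 11.1 CPM in senescent iMEFs. It was called lower with a log2 fold change of -0.50 (adjusted p = 0.0197 from edgeR's test), although control replicate 3 and senescent replicate 1 crossed, and the call was lost without control replicate 1 or 2 or senescent replicate 2. These are transcript levels, and the activity of both factors is known to be set by their location in the cell, which was not measured.

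**Figure D3:**
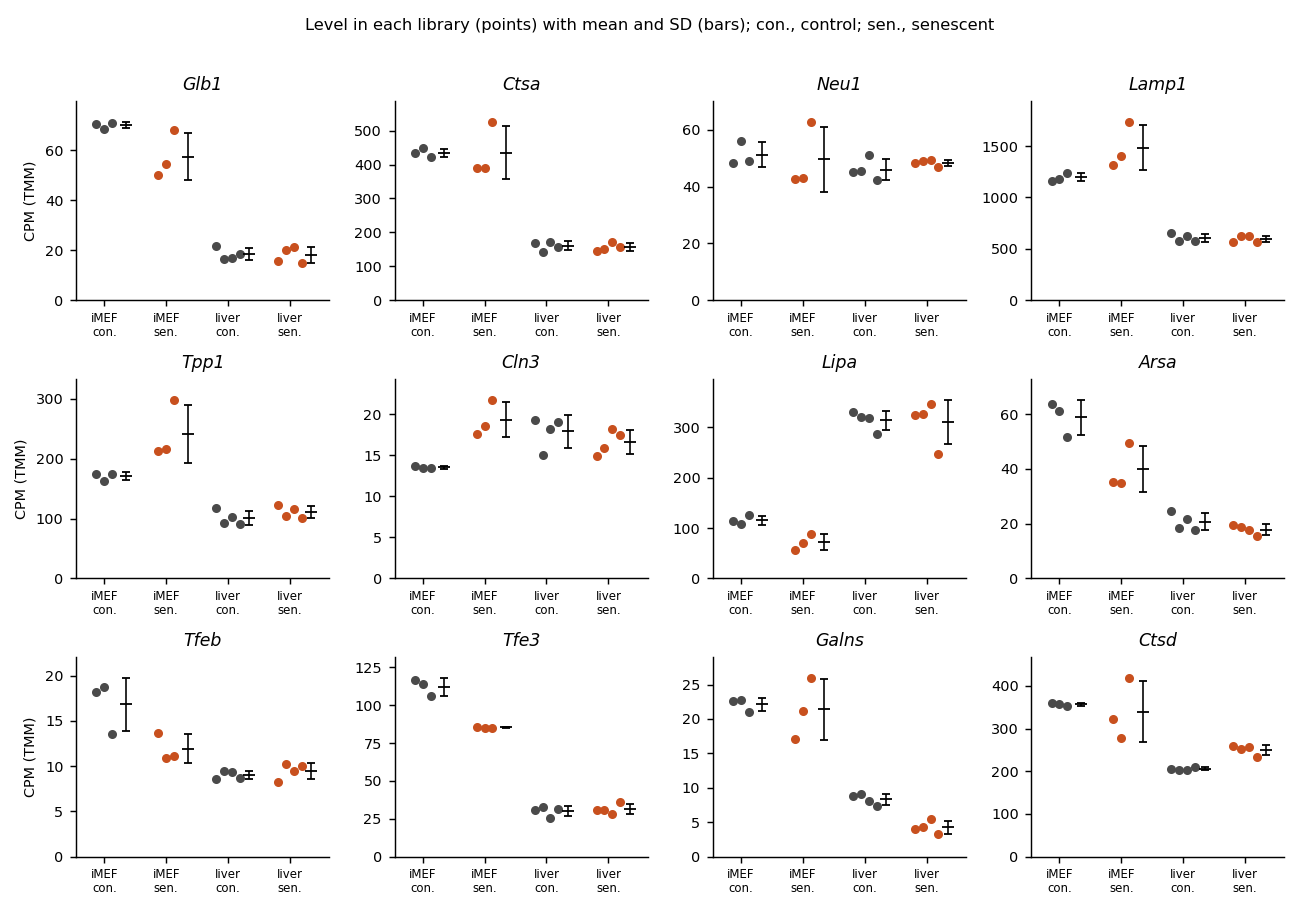
Level in CPM (vertical axes, from zero) of 12 of the genes in every library (points, replicates in order from left to right), with the mean and SD of each group (black). The iMEF control and senescent libraries of *Tfe3* and *Lipa* are apart in every replicate, the senescent libraries of *Glb1* lie below its controls, and the liver groups overlap except for *Galns* and *Ctsd*.

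The 12 genes with an E-box in the promoter window held 1 riser (*Lamp1*) and 2 fallers (*Arsa* and *Atp6v0d1*) in senescent iMEFs, and the 28 genes with a window lacking it held 4 risers and 4 fallers. The median log2 fold change was 0.11 with and -0.03 without the motif. Without senescent replicate 3 the medians were -0.08 and -0.17, with 1 riser and 5 fallers among the 12 genes and 2 risers and 10 fallers among the 28. Among all tested genes 18.6% rose and 21.2% fell, and 20.2% and 22.5% without that library. The counts and medians describe both groups of genes, and the difference between the groups was not tested.

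Senescent replicate 3 weighed heavily on these counts. Against the control mean, the median of the 46 genes was -0.17 and -0.12 on the log2 scale in senescent replicates 1 and 2 and 0.24 in replicate 3, where 35 genes lay above the control mean against 13 and 15 in the other senescent libraries. The medians over all tested genes were -0.01, -0.01 and 0.00. Replicate 3 had the highest senescent value for 40 of the 46 genes, against 40.3% of all tested genes. The 46 genes summed to 12337 CPM in it, against 9233.5 and 9740.9 CPM in senescent replicates 1 and 2 and 9982.7 to 10283 CPM in the controls. The part of its higher mitochondrial share in this was not tested.

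**Figure D4:**
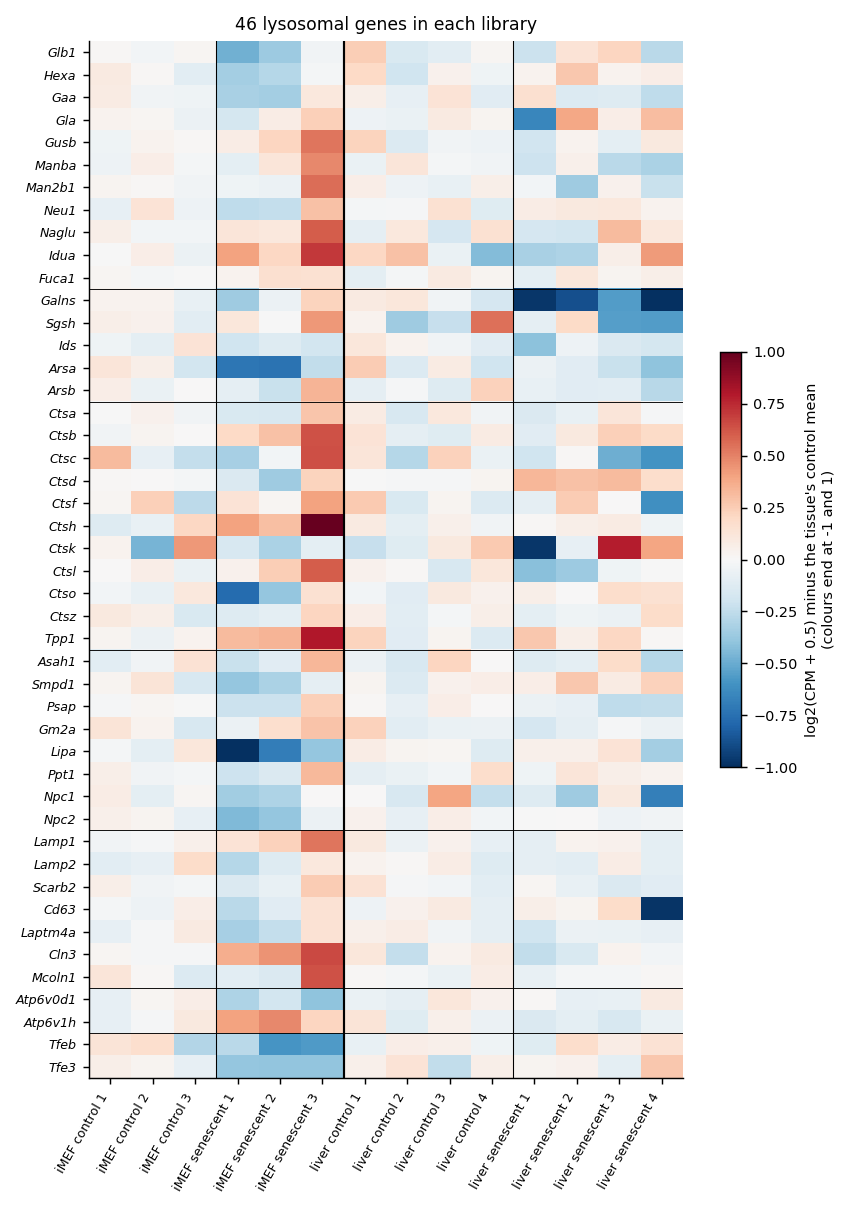
Deviation of each of the 46 genes (rows, by role) in each of the 14 libraries (columns) from the control mean of its tissue, as a difference of log2(CPM + 0.5), with colours ending at -1 and 1. In iMEF senescent replicate 3, 35 of the genes are above the control mean, against 13 and 15 in senescent replicates 1 and 2.

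Of the genes called without senescent replicate 3, the 5 risers, *Tpp1*, *Cln3*, *Atp6v1h*, *Ctsb* and *Lamp1*, and 6 of the 16 fallers were also called with all libraries. Newly called lower were *Glb1*, *Hexa*, *Gaa*, *Neu1*, *Ctsd*, *Ctso*, *Smpd1*, *Psap*, *Npc1* and *Laptm4a*, with log2 fold changes from -0.61 (*Ctso*, a cysteine cathepsin) to -0.20 (*Psap*). Leaving out 1 control library left 3 higher each time, and without control replicate 2 also 3 lower. In all 11 alternative fits at the threshold of 0.05, *Tpp1*, *Cln3* and *Atp6v1h* were called higher and *Lipa*, *Arsa* and *Tfe3* lower.

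Beyond the 46 genes, 121 other lysosome genes were listed by function, and 111 of them were tested in iMEFs. Of these, 15 rose and 25 fell (13.5% and 22.5%), against 18.6% and 21.2% of all tested genes. Without senescent replicate 3, 19 rose and 34 fell, against 20.2% and 22.5% of all genes then tested. Of the 15 risers 14 and of the 25 fallers 22 were called the same way. These list counts, and those by list below, are descriptions to be read beside those shares of all genes. The list of vesicle fusion, the HOPS tethering complex and autophagy held 8 fallers and 1 riser among 20 genes, and 7 fallers and 3 risers without senescent replicate 3. *Map1lc3a*, an autophagosome marker of the LC3 family, had a log2 fold change of -1.35, and *Wipi1*, which acts early in autophagosome formation, of -0.94. The riser was *Atg9b*, a lipid scramblase of autophagy, with 3.70, from 1.42 to 18.7 CPM, and it shares exonic bases with *Nos3* on the opposite strand.

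Of the other 17 tested proton pump subunits, 4 rose and 4 fell, and 3 and 3 did so without senescent replicate 3. Of all tested genes 18.6% rose and 21.2% fell, and 20.2% and 22.5% without that library. The risers with the smallest p were *Atp6v0e2* (log2 fold change 1.82) and *Atp6v1c1* (0.59), and the fallers *Atp6v1g1* (-0.54) and *Atp6v1b2* (-0.25), which was not called without that library. Of 24 further tested enzymes and cofactors 2 rose and 6 fell, among them *Galc* (0.63), which degrades galactosylceramide, and *Aga* (0.51) against *Lgmn* (-0.64), the protease legumain, and *Smpdl3a* (-1.38). Without senescent replicate 3 the fallers among these enzymes numbered 14 of 24, against 22.5% of all genes then tested. Of 18 membrane proteins 3 rose, among them *Cd68* (0.83) and *Abca2* (0.54), and 2 fell, *Tpcn2* (-0.58) and *Tpcn1* (-0.30), both endolysosomal channels, and 4 fell without senescent replicate 3. *Cd68* is also a macrophage marker, and of the 14 macrophage markers 8 had no read in iMEFs, among them *Adgre1*. The list summed to 4.39 to 5.91 CPM in controls and 6.40 to 8.60 CPM in senescent iMEFs. Most of that sum was *Cd68* itself, with means of 3.95 and 7.03 CPM. It was the only 1 of the 14 with enough reads to be tested, so the sum describes *Cd68* more than the list.

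Of 16 genes that sort enzymes to lysosomes 3 rose and 2 fell, and 5 and 3 without senescent replicate 3. The shares of all tested genes were 18.6% and 21.2% with all libraries, and 20.2% and 22.5% without that library. The adaptors of the mannose-6-phosphate receptors were split, with *Gga3* at 0.60 and *Gga2* and *Gga1* at -0.50 and -0.34, and *Vps26a* of the retromer rose by 0.44. *Gga3* shares exonic bases with *Mrps7* on the opposite strand. Of 15 tested regulators of lysosome biogenesis 2 rose and 3 fell, and 3 and 3 without that library. *Rragd*, a Rag GTPase that anchors mTORC1 signalling at lysosomes, had a log2 fold change of 0.91 and *Fnip1* of 0.25, against -0.48 for *Ppp3ca*, a catalytic subunit of the phosphatase that activates TFEB, and -0.69 for *Lamtor4*, of the Ragulator complex. All these named genes passed an adjusted p of 0.05 in edgeR's test with all libraries.

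In the livers, edgeR's quasi-likelihood test called none of the 46 genes, against 0.308% of 14270 tested genes higher and 0.035% lower. At an unadjusted p of 0.05, 2 of the 46 passed (4.35%), against 7.54% of all tested genes, and they were *Galns* and *Ctsd*, named after their values were seen. DESeq2 called the same pair. The median log2 fold change was -0.032 for the 46 genes and -0.004 for all tested genes, and the median size was 0.09 against 0.13. The 95% interval lay within 0.5 of zero on the log2 scale for 38 of the 46 genes and within 1 for 44. The 46 genes took 0.674% ± 0.0238 of reads in control livers and 0.655% ± 0.0163 in senescent livers (SD, n = 4 each).

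*Glb1* in control livers was at 21.6, 16.3, 16.8 and 18.5 CPM, and in senescent livers at 15.6, 20.1, 21.1 and 15.0 CPM. The groups overlapped fully, with means of 18.3 ± 2.40 and 18.0 ± 3.10 CPM (SD, n = 4 each) and a log2 fold change of -0.03 (95% interval -0.34 to 0.28, adjusted p = 0.983 from edgeR's test). *Ctsa* was at 169, 143, 172 and 156 CPM in control livers and at 145, 151, 173 and 158 CPM in senescent livers. *Neu1* was at 45.2, 45.4, 51.2 and 42.2 CPM in control livers and at 48.3, 49.2, 49.3 and 46.9 CPM in senescent livers. Both partners of beta-galactosidase overlapped between groups, with log2 fold changes of -0.03 and 0.07.

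The membrane proteins and factors were equally close. *Lamp1* was at 649, 580, 625 and 571 CPM in control livers and at 568, 620, 624 and 565 CPM in senescent livers. *Lamp2* was at 695, 683, 712 and 618 CPM in control livers and at 636, 627, 714 and 630 CPM in senescent livers. Both overlapped between groups, and their log2 fold changes had 95% intervals of -0.21 to 0.15 and -0.24 to 0.13. *Tfeb* was at 8.53, 9.44, 9.31 and 8.71 CPM in control livers and at 8.21, 10.2, 9.49 and 9.98 CPM in senescent livers. *Tfe3* was at 31.0, 33.0, 25.2 and 31.3 CPM in control livers and at 30.6, 30.9, 28.0 and 36.2 CPM in senescent livers. The log2 fold changes were 0.07 for *Tfeb* and 0.06 for *Tfe3*, with overlapping groups.

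*Galns*, the sulfatase that degrades keratan sulfate, was at 8.86, 9.03, 8.09 and 7.33 CPM in control livers and at 3.99, 4.30, 5.48 and 3.22 CPM in senescent livers. All 4 senescent livers lay below all 4 controls, as they did for 1.96% of all tested genes. The log2 fold change was -0.97 ± 0.19 (SE), with a 95% interval of -1.38 to -0.56, and edgeR gave an adjusted p of 0.0566. *Galns* passed with DESeq2 (adjusted p = 0.000495), without the filter on low counts (0.0105) and without senescent replicate 3 (0.0399). These were 3 of 13 alternatives, and over all 13 its log2 fold change stayed between -1.12 and -0.86. *Galns* lies on chromosome 8 of GRCm38 from 122578242 to 122611463, 15.5 Mb from *Terf2*. Only the senescent mice carried the floxed *Terf2* allele, so an effect of the deletion and a difference of the chromosome around that allele cannot be told apart in livers. In iMEFs both groups carried the allele, and *Galns* was at 22.6, 22.7 and 21.0 CPM in controls and 17.1, 21.2 and 25.9 CPM in senescent cells, a log2 fold change of -0.05. *Atp6v0d1*, 1.5 Mb from *Terf2*, had a liver log2 fold change of -0.02, and the other members on chromosome 8, *Man2b1*, *Asah1*, *Lamp1* and *Mcoln1*, ran from -0.13 to -0.02.

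*Ctsd*, the aspartic protease cathepsin D, was at 205, 204, 204 and 210.1 CPM in control livers and at 259.8, 252, 257 and 233 CPM in senescent livers. The groups did not overlap, as was so for 2.55% of all tested genes in this direction. The log2 fold change was 0.28 ± 0.07 (SE), with a 95% interval of 0.12 to 0.44. Its adjusted p was 0.262 from edgeR's test and 0.0250 from DESeq2. Summed macrophage and Kupffer cell markers were 432 to 931 CPM in control and 742 to 879 CPM in senescent livers, and edgeR called 0 of the 13 tested (2 at an unadjusted p of 0.05). Markers of hepatic stellate cells summed to 349 to 409.9 CPM in control and 410.1 to 464 CPM in senescent livers, and those of endothelial cells to 317 to 351 and 363 to 413 CPM. The ratio of senescent to control means was 1.19 and 1.15 for these lists. It was 1.16 for hepatocytes, 1.36 for cholangiocytes and 0.933 for fibroblasts. Monocytes, neutrophils and lymphocytes had 1.07, 1.32 and 1.01. A sum follows its most abundant gene, which was *Alb* for hepatocytes, *Spp1* for cholangiocytes and *Fn1* for fibroblasts. Single genes of these lists went both ways. Log2 fold changes ran from -0.40 to 0.30 for hepatocytes (median -0.07) and from -1.24 to 0.54 for cholangiocytes (median 0.24). They ran from -0.42 to 0.06 for fibroblasts (median -0.07). In every list edgeR called 0 genes. The part of any of these cell types in the *Ctsd* values was not tested.

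The remaining liver genes were described by their ranges. Log2 fold changes ran from -0.19 (*Manba*, beta-mannosidase) to 0.10 (*Hexa*, a subunit of beta-hexosaminidase) in the glycosidases and from -0.28 to -0.15 in the sulfatases other than *Galns*. They ran from -0.31 (*Ctsc*) to 0.22 (*Ctsk*) in the peptidases other than *Ctsd*, and from -0.26 (*Npc1*) to 0.16 (*Smpd1*) in the lipid group. The membrane proteins and pump subunits ran from -0.13 to -0.02. *Ctsk*, at 0.725 to 1.22 CPM in control and 0.231 to 1.97 CPM in senescent livers, had the widest interval, from -0.91 to 1.35. Of the 114 other lysosome genes tested in livers, edgeR's test called 0, and 10 (8.77%) passed an unadjusted p of 0.05, against 7.54% of all tested genes.

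The change in livers was set against that in iMEFs gene by gene, in 1 fit over all 14 libraries. The difference passed an adjusted p of 0.05 for 7 of the 46 genes (15.2%), against 17.1% of the 11693 genes tested in both tissues. For *Galns* (difference -0.92, liver minus iMEF, on the log2 scale), *Ctsh* (-0.81), *Cln3* (-0.62) and *Atp6v1h* (-0.49) the liver change was lower, and for *Lipa* (0.67), *Tfe3* (0.45) and *Smpd1* (0.43), which encodes acid sphingomyelinase, it was higher. *Lipa* was at 331, 320.1, 319 and 287 CPM in control livers and at 325, 326, 346 and 248 CPM in senescent livers. *Ctsh* was at 258, 226, 251 and 236 CPM in control livers and at 244, 252, 256 and 236 CPM in senescent livers. Both overlapped between liver groups, whereas in iMEFs their groups were apart. *Cln3* was at 19.3, 15.0, 18.2 and 19.0 CPM in control livers and at 14.9, 15.9, 18.2 and 17.4 CPM in senescent livers. *Atp6v1h* was at 63.4, 53.1, 60.2 and 55.6 CPM in control livers and at 52.5, 54.3, 51.8 and 55.3 CPM in senescent livers. These too overlapped in livers. Of the 7, *Galns* was called in all 19 alternative fits at the threshold of 0.05, with an adjusted p of 0.0129 in edgeR's test with all libraries. For *Glb1* the difference was 0.26 (95% interval -0.15 to 0.66, adjusted p = 0.390 from edgeR's test). The count of 3 higher and 4 lower depended on single libraries. It was 5 and 2 without iMEF senescent replicate 3, 0 and 5 without replicate 1 and 1 and 4 without replicate 2 of that group. It was 1 and 2 without iMEF control replicate 1 or 2, and 1 higher with 3 or 4 lower without liver control replicate 1 or 3 or liver senescent replicate 2 or 4.

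The order of the genes by level was set side by side for the tissues. Levels per exonic length were taken in the controls as RPKM (CPM divided by exonic kilobases), from tables scaled separately, so they are given as a description. *Psap* and *Lamp1* headed the order in both, with 485 ± 5.21 and 447 ± 14.7 RPKM in iMEFs (SD, n = 3) and 229 ± 9.84 and 227 ± 13.9 RPKM in livers (SD, n = 4), and in livers they did not differ beyond their spread. *Glb1* stood in place 19 in iMEFs, at 23.3 ± 0.433 RPKM, and in place 31 in livers, at 6.09 ± 0.797 RPKM. The order in iMEFs and in livers had a Spearman correlation of 0.554 over the 46 genes, which share the libraries of each tissue. *Cd63* was at 284 ± 11.6 RPKM in iMEFs and 1.36 ± 0.0867 RPKM in livers. It has a pseudogene, *Cd63-ps*, that could take some of its reads in either tissue, and its part in these levels was not tested. In the other direction, *Ctsh* was at 0.565 ± 0.0871 RPKM in iMEFs and 54.0 ± 3.14 RPKM in livers, and *Ctsc*, which activates leukocyte serine proteases, at 1.21 ± 0.265 and 34.3 ± 5.27 RPKM. *Tfe3* exceeded *Tfeb* in both tissues, with 12.1 ± 0.626 against 2.97 ± 0.510 RPKM in iMEFs and 3.25 ± 0.364 against 1.59 ± 0.0783 RPKM in livers.

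**Figure D5:**
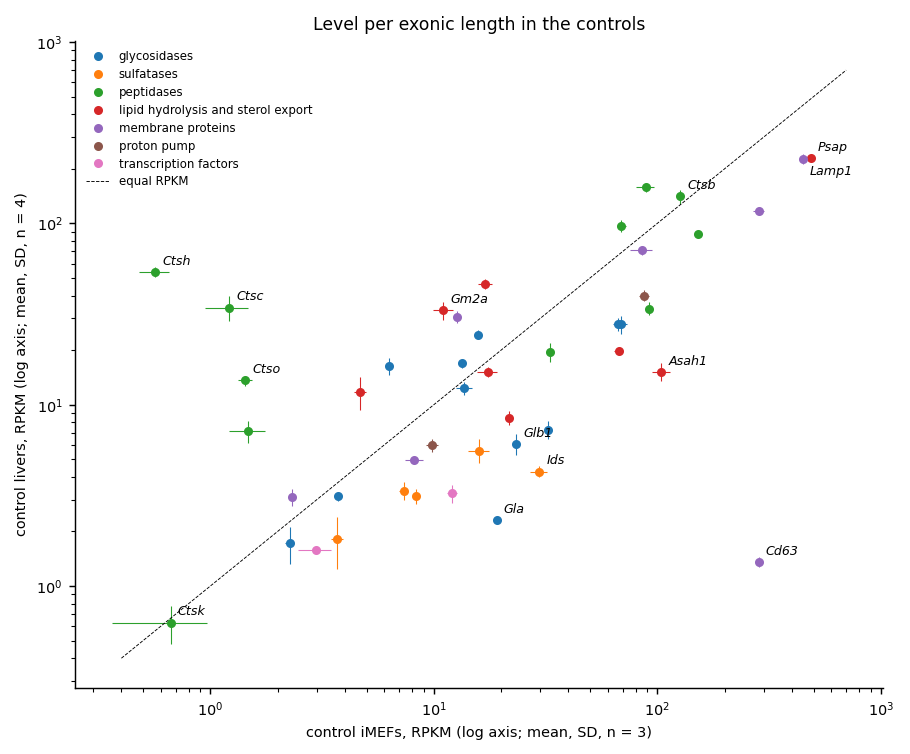
Level per exonic length of the 46 genes in control iMEFs (horizontal, RPKM, mean and SD of 3) and control livers (vertical, RPKM, mean and SD of 4), both on log axes, coloured by role, with equal levels on the dashed line. *Cd63* lies far below the line, at 284 and 1.36 RPKM, and *Ctsh* far above it, at 0.565 and 54.0 RPKM.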

How the data were processed

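The authors deposited 1 table per tissue of whole-number counts of reads per gene (mm10). The submitters' processing notes name STAR, featureCounts and DESeq2 and no version. Which strand setting and annotation release were used is not given in the sources used here. Normalized tables were also deposited and were not used. Libraries held 15364450 to 20177401 reads in genes. Intervals come from the fits and cover the spread between libraries, which the study's methods call biological replicates, although nothing there says that the iMEF samples came from separate embryos.

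Genes were filtered with filterByExpr, scaled by TMM and tested with edgeR 4.0.16 (quasi-likelihood, R 4.3.3), separately in each tissue, with Benjamini-Hochberg adjustment and a threshold of 0.05. Levels are TMM-normalized CPM, and RPKM uses exonic lengths of GENCODE M21. The difference between tissues was fitted over all 14 libraries. On simulated counts, the tests of edgeR, DESeq2 and limma-voom were tried in each tissue, and the test of the difference with edgeR. The other steps were not tried on simulated data. Each result was refitted with limma-voom (limma 3.58.1), DESeq2 1.42.0, RLE scaling, all genes kept regardless of count, a replicate block, a stricter threshold (0.01), and each library left out in turn. Promoter windows came from RefSeq, and only the first listed for each gene was used. Figures were drawn with matplotlib 3.10.9.

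The 46 genes, the other lists and the rule for named genes were chosen with earlier results of these data known. The rule gives values in every library for *Glb1*, *Ctsa*, *Neu1*, *Lamp1*, *Lamp2*, *Tfeb* and *Tfe3*, for up to 6 called rises and falls per tissue, and for up to 6 genes called in the difference, with 2 called genes per direction in each further list. Values of *Ctsd* in livers were added after they were seen. Counts by role, further list and motif class without iMEF senescent replicate 3 were also added after the data were seen.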

Additional observations from a re-analysis of the deposited data

Results flagged for a closer look

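Within groups of 4 livers, 3 of 92 groups of values held a library far from the others by Dixon's criterion, which chance gives in about 1 of 20. *Hexa* was at 66.3 CPM in senescent liver replicate 2, where the nearest was 57.6 CPM. *Gm2a*, the GM2 activator, was at 160.4 CPM in control liver replicate 1, against 131 CPM for the nearest. *Lamp2* was at 714 CPM in senescent liver replicate 3, against 636 CPM.

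The change with senescence differed between tissues for 7 of the 46 genes, by the test of the difference itself in edgeR. That was 15.2%, against 17.1% of the 11693 genes tested in both tissues. Liver minus iMEF, on the log2 scale, the difference was -0.92 for *Galns*, -0.49 for *Atp6v1h*, 0.67 for *Lipa*, -0.62 for *Cln3*, -0.81 for *Ctsh*, 0.45 for *Tfe3* and 0.43 for *Smpd1*. *Smpd1*, *Tfe3* and *Ctsh* were called in 8, 9 and 11 of 19 alternative fits, and the others in 17 or more. Among the 7, *Galns* was the gene with the larger change in livers, and for the others the larger change was in iMEFs.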

How the results depend on the processing

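In iMEFs a threshold of 0.01 left 3 of the 46 genes higher and 3 lower, and 1445 of all genes higher. In livers DESeq2 called 1 higher and 1 lower, with 103 and 36 of all genes, and no filter on low counts called 1 lower, with 97 and 33 of all genes. A threshold of 0.01 left 28 and 2 of all genes in livers. In the difference between tissues, no filter left 1 gene higher, and a threshold of 0.01 left 0 higher and 0 lower, with 557 and 342 of all genes. Leaving out 1 library gave 3 to 9 of the 46 genes higher and 3 to 16 lower in iMEFs (1624 to 2790 of all genes higher), 0 to 1 lower in livers (2 to 10 of all genes lower), and 0 to 5 higher and 2 to 5 lower in the difference (740 to 1226 and 520 to 965 of all genes). The 16 lower in iMEFs were found without senescent replicate 3, where 3117 of the 13823 genes tested (22.5%) were lower. Some values near zero changed sign. In iMEFs *Ctsa* was -0.02 without the filter, -0.01 with limma-voom and -0.01 with the replicate block, and it ran from -0.14 to 0.08 and *Neu1* from -0.24 to 0.06 as libraries were left out. In livers *Glb1* ran from -0.11 to 0.06, *Lamp1* from -0.06 to 0.01, *Ctsa* from -0.08 to 0.01 and *Tfe3* from -0.01 to 0.11. The causes were not tested. Same-numbered libraries had correlations of -0.189 to 0.0114 in iMEFs and -0.0999 to 0.276 in livers. With so few libraries these values cannot show whether the numbers pair samples, and the main fits did not pair them. The replicate block gave 7 higher and 5 lower of the 46 genes in iMEFs and 0 in livers. Depth limits *Ctsk* and, in iMEFs, *Ctsh*, which had few reads.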
